A study of Mus musculus with 6 samples.

Results

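A set of 35 mouse genes that encode plasma proteins and enzymes made mainly by hepatocytes, the main cell type of the liver, was followed in pancreatic islets over 1 day. The genes were chosen by being high on the array of zeitgeber time 20 (ZT20), so their values on these arrays are a description and no test was run on them. All 35 had a probe, and 34 of them could be counted among 27907 genes measured. The counted members included Alb (albumin), Mup19 (a major urinary protein), the fibrinogen chains Fga, Fgb and Fgg, and Cyp2e1 (a cytochrome P450). Ttr (transthyretin) is given by its values but was not counted, because its spot on the ZT0 array carried an outlier flag.

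The islets, which are the clusters of endocrine cells in the pancreas, came from male C57BL6 mice aged 8 weeks that ate rodent chow and were kept in 12 h light, 12 h dark cycles that began with lights on at ZT0. They were isolated with collagenase every 4 h, at ZT0, ZT4, ZT8, ZT12 (lights off), ZT16 and ZT20, and total RNA was labelled with Cy3 and hybridised to 1-colour Agilent arrays. Each time had 1 array, which held a pool of RNA from 3 to 5 mice, so no time had a replicate and no difference between times could be set against the spread between animals. The study followed islet gene expression around the diurnal cycle, and all 6 groups shared strain, sex, age and diet.

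Hepatocytes take up bile acids from the blood, clear drugs and ammonia, and release most of the proteins of blood plasma, among them albumin, the apolipoproteins of lipoprotein particles, clotting factors and complement components. Their genes are driven by a shared set of transcription factors, among them the HNF4, FOXA and C/EBP families. Some of the same genes are also active elsewhere: Ttr is expressed in islet endocrine cells, and Apoa1, Apob, Apoc3, Cps1 and Cyp3a11 in intestinal epithelium.

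A level is the log2 of the processed signal of a spot minus the 75th percentile of its array, so a level of 0 lies at that percentile. Where 5 levels are given from ZT0 to ZT16 they follow the order of time. Levels of different probes are not compared. The difference of a gene on ZT20 is its level there minus the median of the other 5 arrays, on the log2 scale, and a gene is called above when that difference corresponds to at least 2-fold. For the difference, a spot not well above background took its own value or, where that was lower, the lowest detected value on its array. Where such a spot could have set the median, the fold is a lower bound and is written "at least". The share of 43020 spots well above background ran from 66.1% on ZT4 to 84.4% on ZT0 and was 75.3% on ZT20, and 0 spots were saturated. ZT20 lay on the same slide, read in the same scan, as ZT8, ZT12 and ZT16. ZT4 and ZT0 were scanned separately, and ZT0 had 1743 outlier spots against 166 to 247 elsewhere. The number of arrays limits the precision. Of 17 islet endocrine genes measured, 16 or 17 were well above background on each array, ZT20 included. Over all 27907 genes the count ran from 20782 on ZT4 to 26294 on ZT0. All 11 genes of pancreatic acinar cells were well above background on every array too, so these counts do not measure purity.

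On the ZT20 array 32 of the 34 members counted were called above, 28 of them by at least 4-fold, and 0 were called below. Over all 27907 genes 10.8% were called above on ZT20, 698 genes of them by at least 4-fold. By at least 2-fold, 2728 genes were called below. The median difference of the members was 4.79, with a range of -0.30 to 10.29, beside 0.06 over all genes. ZT20 was the highest of the 6 arrays for 32 of the 34, beside 3880 of all 27907 genes. Of the members, 28 stood at least 2-fold above every other array, which held for 2.16% of all genes. Against only the 3 arrays of the same slide and scan, 32 members were above, beside 7.98% of all genes, with a median difference of 4.80. Of the 47 probes of the 35 members 43 were at least 2-fold above, and 11 members had more than 1 probe. The share over all probes was not computed. Since these values chose the members, nothing is read from the gap to all genes. In RNA of whole islets, more cells of a type and more RNA per cell cannot be told apart.

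**Figure D1:**
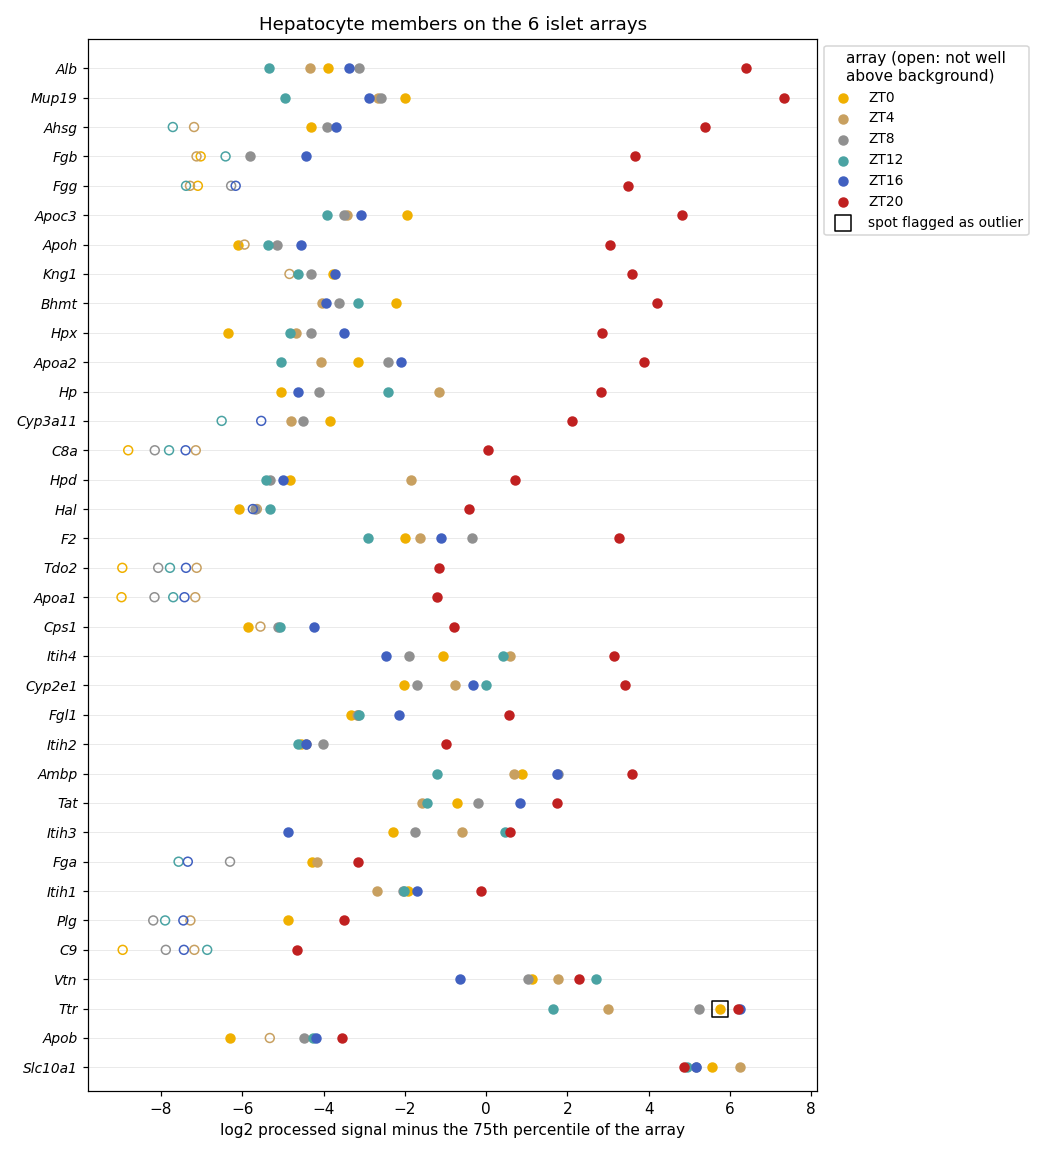
Level of each hepatocyte gene (vertical axis, ordered by its ZT20 difference) on the 6 arrays, as log2 processed signal minus the 75th percentile of the array; open points were not well above background and are drawn at their own value, and the square marks the outlier-flagged spot of Ttr. The ZT20 points stand to the right of the other 5 for 32 of the 34 genes counted, all but Vtn and Slc10a1, while Ttr and Slc10a1 are bright on every array.

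The plasma carriers and binding proteins held the members furthest above. Alb, the main carrier and osmotic protein of plasma, had levels of -3.90, -4.34, -3.14, -5.34 and -3.37 from ZT0 to ZT16 and 6.40 on ZT20. The other 5 arrays were all low and all well above background, and ZT20 was 1255-fold above their median. By the difference, Alb ranked 3 among all genes. Mup19 belongs to the major urinary proteins, pheromone carriers that the male mouse liver secretes in large amounts. Its levels were -2.00, -2.67, -2.58, -4.96 and -2.89 from ZT0 to ZT16 and 7.33 on ZT20, a 1026-fold difference. The family is nearly identical in sequence, so the probe of Mup19 may also read its neighbours.

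Ahsg, fetuin A, an inhibitor of mineral deposition in blood, had levels of -4.30 on ZT0, -3.91 on ZT8, -3.70 on ZT16 and 5.38 on ZT20. It was not well above background on ZT4 and ZT12, and ZT20 was 825-fold above the median of the others. Hpx, hemopexin, which binds free haem, had levels of -6.34, -4.68, -4.32, -4.83 and -3.50 from ZT0 to ZT16 and 2.84 on ZT20, a 184-fold difference. Hp, haptoglobin, which binds free haemoglobin, had levels of -5.06, -1.17, -4.11, -2.42 and -4.62 from ZT0 to ZT16 and 2.84 on ZT20, 124-fold above the median. Unlike Alb, Hp spread widely over the other arrays, with ZT4 the highest of them and ZT12 next. Without ZT0, ZT8 or ZT16 in the reference it was 68.8-fold, 81.9-fold and 68.8-fold above.

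Ambp and Vtn of the same group were bright on the other arrays too. Ambp, the precursor of alpha-1-microglobulin and bikunin, had levels of 0.87, 0.68, 1.76, -1.20 and 1.74 from ZT0 to ZT16 and 3.59 on ZT20, a 6.59-fold difference. Vtn, vitronectin, a plasma and matrix adhesion protein, had levels of 1.13, 1.77, 1.02, 2.71 and -0.64 from ZT0 to ZT16 and 2.28 on ZT20. Its highest array was ZT12, so ZT20 was 2.23-fold above the median of the others and below the highest of them. Vtn lay just inside the 2-fold line with a difference of 1.16, and leaving out ZT0, ZT8 or ZT16 from the reference put it outside, at 0.89, 0.83 and 0.83. Ttr, the carrier of thyroxine and retinol-binding protein, had levels of 5.75, 3.01, 5.23, 1.63 and 6.25 from ZT0 to ZT16, the ZT0 spot with the outlier flag, and 6.20 on ZT20. ZT16 and ZT20 lay side by side for Ttr, and its low arrays, ZT4 and ZT12, were those on which the islet endocrine genes were lowest.

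The 250 bases upstream of the start of Alb, Mup19, Ahsg and Fgb, the members furthest above on ZT20 with a RefSeq promoter entry (GRCm38.p6), are shown because these genes stood highest together. They lie at chr5:90460620-90460869 (plus strand), chr4:61782225-61782474 (minus strand), chr16:22891765-22892014 (plus strand) and chr3:83049864-83050113 (minus strand), each written 5′ to 3′ on the gene's strand. Capitals mark matches on either strand to TTGCNNAA (C/EBP), CAAAGNCCA (HNF4), TGTTTNC (FOXA) and TTANGTAA (the D-box of PAR bZIP factors), and on the gene's strand to TATAAA, the letters of the core promoter box of that name; matches of different motifs did not overlap in these stretches.
Alb: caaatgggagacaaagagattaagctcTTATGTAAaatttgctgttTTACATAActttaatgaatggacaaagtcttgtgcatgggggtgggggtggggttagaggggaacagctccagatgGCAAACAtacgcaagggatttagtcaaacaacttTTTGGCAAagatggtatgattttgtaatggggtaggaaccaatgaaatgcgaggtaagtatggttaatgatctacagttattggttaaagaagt
Mup19: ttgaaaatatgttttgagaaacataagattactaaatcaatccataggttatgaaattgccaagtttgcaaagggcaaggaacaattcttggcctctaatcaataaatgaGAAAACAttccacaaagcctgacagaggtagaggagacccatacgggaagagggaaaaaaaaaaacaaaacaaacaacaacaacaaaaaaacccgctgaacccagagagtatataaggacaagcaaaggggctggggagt
Ahsg: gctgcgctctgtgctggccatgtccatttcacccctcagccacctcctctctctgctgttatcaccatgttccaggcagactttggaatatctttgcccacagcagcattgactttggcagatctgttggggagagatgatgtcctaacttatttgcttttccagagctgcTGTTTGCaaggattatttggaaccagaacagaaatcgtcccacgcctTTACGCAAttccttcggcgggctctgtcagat
Fgb: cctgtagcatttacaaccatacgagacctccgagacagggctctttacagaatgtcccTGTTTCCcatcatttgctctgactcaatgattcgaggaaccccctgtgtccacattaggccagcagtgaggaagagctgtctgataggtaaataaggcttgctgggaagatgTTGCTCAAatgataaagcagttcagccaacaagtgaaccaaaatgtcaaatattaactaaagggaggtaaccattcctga

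In the Alb stretch the C/EBP match lay 94 to 87 bases before the start, the FOXA match 128 to 122, and a pair of D-box matches 223 to 216 and 204 to 197 bases before it. Fgb held a C/EBP match at 80 to 73 and a FOXA match at 192 to 186. Ahsg held a C/EBP match at 32 to 25 and a FOXA match at 79 to 73, and Mup19 a FOXA match at 140 to 134. A match is a run of letters and not a measured binding site.

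RefSeq held promoter entries for 28 of the 35 members, 30 entries in all; Kng1, Hp, Apoc3, Cps1, Fgl1, Ttr and Plg were not matched. The C/EBP letters were in 11 of the 30 entries (36.7%), beside 9.56% of all 32851 entries of that length. The FOXA letters were in 14 (46.7%), beside 17.8% of all entries. The TATA letters were in 6 (20.0%), beside 7.59%, while the HNF4 letters were in 1 (3.33%), that of Cyp3a11, beside 1.70%. The D-box letters were in the entry of Alb alone among members (3.33%), beside 2.06% of all entries. In 266 entries of the other liver genes read below, the C/EBP share was 21.4%, the FOXA share 28.9% and the TATA share 15.4%. There the HNF4 share was 7.52% and the D-box share 3.76%, both above those of the members. A site that departs from the D-box letters is not marked. The marked pair in Alb is not shown to be the site for which Dbp is named. Dbp, the D-box factor named for its site in the Alb promoter, had levels of 3.82, 4.05, 3.83, 3.55 and 1.99 from ZT0 to ZT16 and 1.16 on ZT20. Its level was thus lowest on the array where Alb was highest, and no test links these values.

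Of the 5 apolipoproteins 4 were called above, with a median difference of 7.05. Apoc3, an inhibitor of the clearance of triglyceride-rich particles, had levels of -1.96, -3.42, -3.50, -3.91 and -3.08 from ZT0 to ZT16 and 4.81 on ZT20, a 301-fold difference. Apoh, beta-2-glycoprotein I, which binds phospholipid, had levels of -6.10 on ZT0, -5.16, -5.36 and -4.55 from ZT8 to ZT16 and 3.05 on ZT20 and was not well above background on ZT4. For Apoh the difference was at least 295-fold. Apoa1, the main protein of high-density lipoprotein, was well above background on ZT20 alone, at -1.21, which put it at least 24.9-fold above the others.

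Apoa2 and Apob had probes that disagreed. Apoa2, the second protein of high-density lipoprotein, read -3.15, -4.07, -2.42, -5.04 and -2.08 from ZT0 to ZT16 and 3.89 on ZT20 with the probe used, a 132-fold difference. The brighter probe of Apoa2, set aside for an outlier flag on ZT0, read 5.28 there, 1.86, 1.86, 0.84 and 2.43 from ZT4 to ZT16 and 5.43 on ZT20, an 11.9-fold difference. Both probes were highest on ZT20. Apob, the structural protein of very-low-density lipoprotein, read -6.31 on ZT0, -4.49, -4.26 and -4.18 from ZT8 to ZT16 and -3.54 on ZT20 with the probe used, and was not well above background on ZT4. Its difference of 0.94 lay just outside the 2-fold line, whereas its other probe was at least 65.4-fold above. Leaving ZT8, ZT12 or ZT16 out of the reference carried the probe used past the line, at 1.07, 1.19 and 1.19.

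All 7 members of clotting and fibrinolysis were above, with a median difference of 4.90. Fgb, the beta chain of fibrinogen, had levels of -5.81 on ZT8, -4.42 on ZT16 and 3.66 on ZT20 and was not well above background on ZT0, ZT4 and ZT12, so its difference was at least 709-fold. Fgg, the gamma chain, was detected on ZT20 alone, at 3.50, at least 648-fold above the others. Fga, the alpha chain, had levels of -4.28 on ZT0, -4.15 on ZT4 and -3.15 on ZT20 and was not well above background on the other 3 arrays, which gave at least 4.08-fold with the probe used and at least 19.7-fold with its other probe.

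Kng1, kininogen, the source of bradykinin, had levels of -3.77 on ZT0, -4.30, -4.62 and -3.72 from ZT8 to ZT16 and 3.59 on ZT20, and was not well above background on ZT4. It was 237-fold above the median. F2, prothrombin, had levels of -2.00, -1.62, -0.36, -2.90 and -1.10 from ZT0 to ZT16 and 3.28 on ZT20, 29.8-fold above. F2 was well above background throughout. Fgl1, a secreted protein related to fibrinogen, lay between -3.32 and -2.16 on the other 5 arrays and at 0.56 on ZT20, a 13.2-fold difference. Plg, plasminogen, the precursor of the enzyme that dissolves clots, was detected on ZT0 at -4.87 and on ZT20 at -3.50, at least 3.19-fold above the median.

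The 4 heavy chains of the inter-alpha-trypsin inhibitor family, several of which attach to hyaluronan in the matrix, were all above, with a median difference of 2.89. Itih4 had levels of -1.05, 0.58, -1.90, 0.41 and -2.45 from ZT0 to ZT16 and 3.15 on ZT20, 18.4-fold above the median, or 11.1-fold without ZT8 or ZT16 in the reference. Itih2 lay between -4.63 and -4.01 on the other 5 arrays and at -0.999 on ZT20, 10.8-fold above. Itih1 lay between -2.69 and -1.69 and at -0.14 on ZT20, 3.70-fold above. Itih3 had levels of -2.30, -0.60, -1.76, 0.47 and -4.87 from ZT0 to ZT16 and 0.58 on ZT20, 5.07-fold above the median. Itih3 and Itih4 shared a pattern outside ZT20, with ZT4 and ZT12 the higher arrays and ZT16 the lowest, and Itih3 on ZT12 nearly reached its ZT20 level.

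Both terminal complement members, parts of the membrane attack complex, were undetected outside ZT20 on the probes used. C8a stood at 0.04 on ZT20, at least 59.0-fold above, but its other probe read -4.92 there and was at least 1.72-fold above, under the 2-fold line. C9 stood at -4.66 on ZT20, at least 2.28-fold above, and was the weakest member called on a bound. Without ZT0, ZT8 or ZT12 in the reference its difference was 0.85, 0.85 and 0.90, under the line. Slc10a1, the sodium-dependent bile acid transporter of the hepatocyte surface, was the 1 transporter. It had levels of 5.56, 6.24, 5.17, 4.94 and 5.15 from ZT0 to ZT16 and 4.87 on ZT20, so ZT20 was its lowest array with a difference of -0.30. In the authors' deposited table, on another scaling, that difference was 0.06. Its other probe went the opposite way, from -3.79 on ZT0, -3.91 on ZT8, -4.40 on ZT12 and -4.09 on ZT16 to -2.58 on ZT20, 2.86-fold above.

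All 8 enzymes were above, with a median difference of 4.80. Bhmt, which remethylates homocysteine with betaine, had levels of -2.22, -4.03, -3.62, -3.14 and -3.93 from ZT0 to ZT16 and 4.21 on ZT20, 227-fold above the median, and its other probes were at least 103-fold and at least 621-fold above. Cyp3a11, a drug-metabolising P450 with close paralogs, had levels of -3.84 on ZT0, -4.79 on ZT4, -4.50 on ZT8 and 2.13 on ZT20, and was not well above background on ZT12 and ZT16. It was 121-fold above with the probe used and at least 1145-fold with the other. Cyp2e1, the ethanol-oxidising P450, had levels of -2.01, -0.76, -1.69, 0.01 and -0.31 from ZT0 to ZT16 and 3.42 on ZT20, 18.1-fold above.

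The other enzymes act on amino acids and ammonia. Hpd, of tyrosine breakdown, had levels of -4.82, -1.86, -5.32, -5.42 and -5.01 from ZT0 to ZT16 and 0.72 on ZT20, 52.9-fold above, with ZT4 apart from the other low arrays. Hal, of histidine breakdown, was at -0.42 on ZT20 and no higher than -5.32 elsewhere where it was detected, at least 30.0-fold above. Tdo2, of tryptophan breakdown, was detected on ZT20 alone, at -1.15, at least 25.8-fold above. Cps1, the entry enzyme of the urea cycle, was at -0.80 on ZT20 against -4.24 on ZT16, its next highest array, at least 19.2-fold above the median. Tat, tyrosine aminotransferase, had levels of -0.71, -1.57, -0.20, -1.45 and 0.83 from ZT0 to ZT16 and 1.75 on ZT20, 5.50-fold above the median but less than 2-fold above ZT16, with a difference of 0.92.

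Outside ZT20 the members did not share a high array. Of the 34 counted, 19 were well above background on all 6 arrays and 5 (Fgg, C8a, Tdo2, Apoa1 and C9) on ZT20 alone. Over all 27907 genes these counts were 18918 and 218. The highest array other than ZT20, over the 29 members detected elsewhere, was ZT16 for 11, ZT0 and ZT4 for 5 each and ZT8 and ZT12 for 4 each. Over the 27689 genes detected elsewhere it was ZT16 for 6428, ZT0 for 7604, ZT4 for 6404, ZT8 for 2473 and ZT12 for 4780. The same 2-fold rule applied to the other arrays called 2 members above on ZT0 (5.88%, beside 15.5% of all genes), 6 on ZT4 (17.6%, beside 19.3%) and 1 on ZT8 (2.94%, beside 6.58%). It called 4 on ZT12 (11.8%, beside 14.4%) and 5 on ZT16 (14.7%, beside 9.06%), against 94.1% on ZT20. Of the 5 members also active in intestinal epithelium 4 were above on ZT20, where the members were chosen. On ZT4 0 of the 5 were above, beside 19.3% of all genes. Well above background there were 2 of the 5, beside 21 of the 34 members and 20782 of all 27907 genes. ZT4 had the lowest share of spots well above background of the 6 arrays. ZT4 was the array on which the 14 measured intestinal genes had a median deviation of 3.54 from their own means. The source of these 5 members was not tested.

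**Figure D2:**
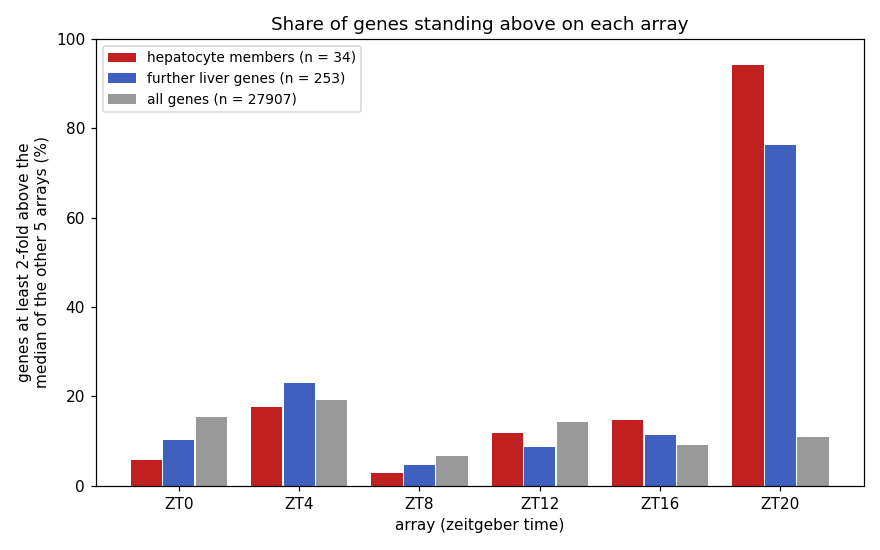
Share of genes (vertical axis, percent) at least 2-fold above the median of the other 5 arrays, for each array in turn, in the 34 hepatocyte genes that were chosen on ZT20, 253 further liver genes and all 27907 genes. On ZT20 the shares are 94.1%, 76.3% and 10.8%, and on the other arrays the members lie between 2.94% and 17.6%.

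Other genes of the same pathways, 290 in 13 lists written with earlier results of these data known, were read on the same arrays. Of the 253 measured, 193 were at least 2-fold above on ZT20 (76.3%, beside 10.8% of all genes), with a median difference of 2.57. By at least 4-fold 154 were above, beside 698 of all 27907 genes. At least 2-fold below were 4, beside 2728 of all genes. Of the 193 called, 62 rest on a lower bound. Together with the members, which supplied 13, these genes made up 38 of the 50 genes furthest above on ZT20. They use the same array as the choice of members and so are no independent support for it.

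Among secreted proteins, all 9 other lipid carriers were above, led by Fabp1, the liver fatty acid-binding protein, at 278-fold, and Apoc1 at 57.4-fold. Fabp1 was 138-fold above without ZT0 or ZT16 in the reference and 141-fold without ZT8. All 9 measured major urinary proteins were above, with a median difference of 8.59. Mup17 had levels of -3.85 on ZT0, -3.99 on ZT8, -4.59 on ZT16 and 6.54 on ZT20, 2248-fold above the median, and Mup18 was 1874-fold above. Of 22 serpins and other plasma proteins 19 were above, with Serpina3k, an inhibitor of serine proteases, at least 659-fold and Mug2, a murinoglobulin, at least 471-fold, while Cp, ceruloplasmin, was 1.21-fold above.

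Of 14 clotting factors and inhibitors 11 were above, with Kng2 at least 64.0-fold and Serpinc1, antithrombin, 59.2-fold, while F10, factor X, had a difference of -0.92. Without ZT0, ZT8 or ZT16 in the reference Serpinc1 was 38.0-fold, 36.1-fold and 36.1-fold above, and F10 passed the line below, at -1.53, without ZT8 or ZT12 and at -1.41 without ZT16. Complement was split. Of 13 genes 8 were above and 2 at least 2-fold below, with Mbl2, a mannose-binding lectin, at least 67.8-fold above and C4bp 36.1-fold, but C3, the central component, had a difference of -1.99. Of 10 acute phase genes 7 were above. Orm1, an orosomucoid, was at least 44.1-fold and Hamp, hepcidin, 39.3-fold above, and Orm3 was not well above background on ZT20. Hamp was 24.2-fold above without ZT0 or ZT16 in the reference.

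Among metabolic genes, 29 of 35 cytochromes P450 were above, with Cyp2f2 at least 461-fold and Cyp2a12 at least 231-fold; Cyp3a44 was not well above background on ZT20. Of 29 phase II and amine oxidation genes 26 were above, with Ces3a, a carboxylesterase, at least 343-fold and Slc27a5, which conjugates bile acids to coenzyme A, 143-fold, while Sult1a1 had a difference of -0.03. Of 31 urea cycle and amino acid enzymes 24 were above, with Dmgdh, the enzyme next to Bhmt in betaine breakdown, at least 65.7-fold and Agxt at least 63.5-fold, and Kmo at -0.77. Of 30 genes of fat and ketone metabolism 22 were above, with Rdh7 at least 179-fold and Pon1, paraoxonase, at least 141-fold, and Cpt1a at -0.17.

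Of 12 genes of sugar metabolism 8 were above. Pck1, of gluconeogenesis, was at least 54.8-fold above, and Slc2a2, the glucose transporter that beta cells also use, 1.21-fold. Slc2a2 passed the 2-fold line, at 3.31-fold, 3.10-fold and 3.31-fold, without ZT0, ZT8 or ZT16 in the reference. Of 25 transporters and receptors 16 were above and 2 below, with Asgr1, of the asialoglycoprotein receptor, 47.2-fold and Tfr2 22.0-fold above and Slco2b1 at -1.79, or -2.52 without ZT0 or ZT16 and -2.41 without ZT8. Liver-enriched transcription factors had the lowest median of the 13 lists. Of 14 of them 5 were above, with a median difference of 0.85, Creb3l3 10.4-fold and Ppara 4.72-fold above, and Foxa1 at -0.54. Foxa1 was at 0.43 without ZT0 or ZT4 in the reference and at -1.36 without ZT12 or ZT16.

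**Figure D3:**
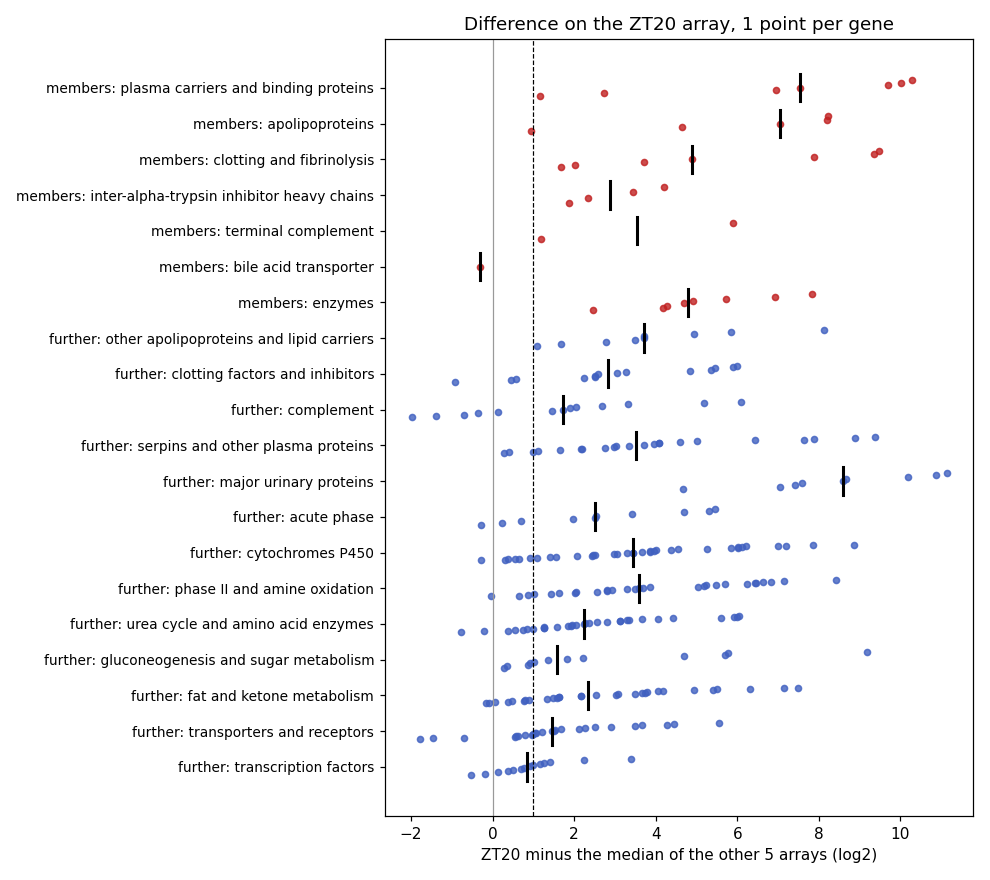
ZT20 difference (horizontal axis, log2 level on ZT20 minus the median of the other 5 arrays) of each gene of the 7 member roles in red and the 13 further lists in blue; black bars are medians, the dashed line marks 2-fold, and lower bounds are drawn at the bound. Medians run from 8.59 for the further major urinary proteins to 0.85 for transcription factors among the further lists, and from 7.52 for carriers to -0.30 for Slc10a1 alone among the members.

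Lists by liver zone and sex were read in the same way, beside 10.8% of all genes above on ZT20. Of 13 periportal genes 12 were above, with a median difference of 3.50, and of 10 without the members 9 were, with a median of 3.24. Asl, of the urea cycle, was the exception, at 0.55. Of 10 pericentral genes 4 were above, with a median of 0.30. They included Cyp2e1 and Lect2, at least 16.2-fold above, while Axin2 was at -0.62. Glul, glutamine synthetase, which islets also express, was at 0.09. Of 12 genes biased to male mouse liver 10 were above, with a median of 3.76, and Mup20 was 385-fold above. Of 9 genes biased to female liver 4 were above, with a median of 0.60, with Cyp3a16 128-fold above and Sult2a1 not well above background on ZT20. No difference between these lists was tested.

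Markers of other cells of the liver and its surroundings were read beside the members. Over all 27907 genes 10.8% were above on ZT20 and 2728 genes were below. Of 7 measured Kupffer cell genes 2 were above and 2 below on ZT20. Clec4f, the gene most particular to Kupffer cells, was at -2.85 on ZT20 and at least 7.98-fold above, while Timd4 was at -2.01 by difference. Of 6 sinusoidal endothelial genes 1 was above and 3 below, of 7 stellate genes 0 above and 4 below, and of 8 bile duct genes 1 above and 1 below. Of 9 kidney tubule genes 0 were above and 1 below. Afp, the albumin relative of the fetal liver, had levels of -2.12, -0.98, -2.51 and -0.42 from ZT0 to ZT12. It was not well above background on ZT16 and ZT20, and its ZT20 difference was -3.35.

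Summed signals are given in units of each array's 75th percentile. The sum of the members was 499.8 on ZT20 against 43.3 to 86.2 on the other 5 arrays. Slc10a1 alone made up 30.8 to 75.8 of the sums on the other 5 arrays, and 29.3 of that on ZT20. For stellate genes the summed signal was 5.98 on ZT20, within the range of 4.42 to 40.4 elsewhere, and for Kupffer genes 1.54, within 0.488 to 79.7. For sinusoidal endothelial genes it was 2.82, within 2.64 to 30.7, and for bile duct genes 4.86, within 0.899 to 9.64. None of these lists had its highest sum on ZT20. The members were chosen on that array, so nothing is read from the contrast with their sum.

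Genes of the pancreas and its lymphoid surroundings also differed between arrays. The 17 islet endocrine genes had median deviations from their own means of 1.05, -1.54, 0.19, -2.54 and 1.03 from ZT0 to ZT16 and 1.06 on ZT20, so ZT20 resembled ZT0 and ZT16. Their summed signal was 1447 on ZT20, within 541.9 to 2105 elsewhere, and that of 11 acinar genes was 1582, within 592.7 to 2252. The 10 lymphocyte genes were all at least 2-fold below on ZT20, beside 2728 of all 27907 genes. Their median difference was -3.87, and their median deviation was -3.19 on ZT16 against -2.92 on ZT20. Cd3e was an exception to that likeness, at 4.64 on ZT16 against 3.36 on ZT20. Cd79a was 2.27-fold below, and without ZT4, ZT8 or ZT12 in the reference its difference was -0.80, -0.47 and -0.47. Of the 14 intestinal genes 5 were above on ZT20, beside 10.8% of all genes. Their summed signal was 151.1 there, within 29.2 to 482.4 elsewhere. The part of these cell mixtures in the ZT20 levels of the members was not tested.

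**Figure D4:**
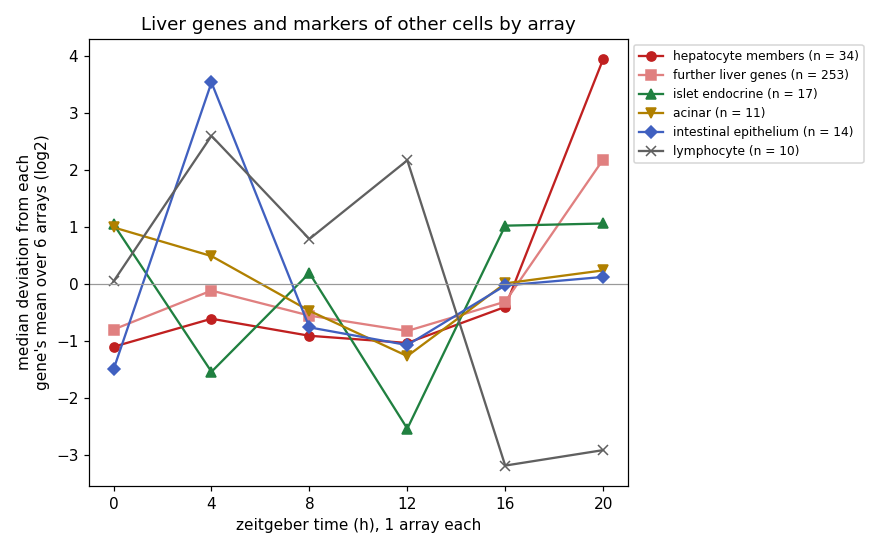
Median deviation of the genes of 6 lists from each gene's own mean over the 6 arrays (vertical axis, log2) against zeitgeber time in hours, 1 array each; lines join arrays of a list and are not fits. The members reach 3.95 and the further liver genes 2.19 on ZT20 and lie below 0 on the other 5 arrays, while intestinal genes are highest on ZT4 and lymphocyte genes lowest on ZT16 and ZT20. Each gene's mean includes ZT20, so a high value there draws the other 5 deviations below 0.

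A cosine of 24 h was fitted to each of 24127 genes well above background on at least 3 arrays. At an adjusted p of 0.05 in limma 0 genes passed (0%), with a smallest adjusted p of 0.754, while 965 (4%) had an unadjusted p under 0.05. Leaving out 1 array moved that unadjusted count up to 4026 (ZT8) and 2452 (ZT12), with 0 passing each time. It moved down to 855 (ZT4), 781 (ZT0), 417 (ZT16) and 347 (ZT20), again with 0 passing. An F test without moderation also passed 0, with 680 under that unadjusted p. Of 206 further liver genes in that fit 0 passed and 9 had an unadjusted p under 0.05. That count went to 43 (ZT0), 8 (ZT4), 37 (ZT8), 14 (ZT12), 31 (ZT16) and 6 (ZT20) when the array in brackets was left out. The 43 without ZT0 stood beside 781 of all 24127 genes, and nothing is read from them. The members were left out of the counts of further liver genes because they were chosen on these arrays.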

How the data were processed

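Total RNA of 6 islet pools, 1 per time point, was read on 1-colour Agilent arrays. The processed signal of each spot, per the file headers and the submitters' processing notes, is a linear intensity from Agilent Feature Extraction 11.0.1.1, detrended after background subtraction and not normalized between arrays; other columns hold flags of 0 or 1. The authors' deposited value table held log2 values for 30170 probes, with column medians of 8.62 to 8.63 and no centring of genes (each column matched its own array's log2 processed signal with a Pearson's r of 0.9987 to 0.9998); the steps behind it are not given in the sources used here.

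Control spots and outlier-flagged spots were removed, and spots of a probe were averaged. Probes took symbols through their accession from RefSeq (GRCm38.p6, names and promoters only); 27228 of 39429 probes had one. A probe was used when well above background on at least 1 array and not outlier-flagged on any (33535 probes), and the probe of highest mean stood for its gene. With 1 array per time the main comparison has no test. The cosine was fitted with limma 3.58.1 in R 4.3.3 on values without the floor, with Benjamini-Hochberg adjustment and 3 residual degrees of freedom. The fit and the fold rule were tested on simulated data. For the fold rule all simulated spots counted as detected, so the floor, the choice of probe and the outlier filter were not tested.

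The members and lists were chosen with earlier results of these data known. All members are named, with the 2 genes of largest and the 1 of smallest difference in each other list and the 10 genes outside all lists furthest above; some named items are not reported here. Hnf4a, Nr1h4, Cebpa, Glul, Per2 and Nr1d1 were named after their values were seen. Alternatives covered scaling, background correction, the authors' table, the reference arrays, the floor, filters, the probe of a gene and the fold threshold.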

Additional observations from a re-analysis of the deposited data

How the results depend on the processing

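With 1 array per time point no value here has a replicate error, so a median was taken as changed when it moved by over 1.5-fold. The count of members above stayed between 26 and 33 in every setting other than the filter on all 6 arrays. Of the 34 members, 27 were above in every setting that kept them, which was 16 to 19 settings for each member. Apob, C8a, C9, Itih3, Slc10a1, Tat and Vtn were not. With normexp background correction the median difference was 3.99 for the members and 1.88 for the further liver genes. Against the highest of the other 5 arrays it was 3.70 and 1.52, and that of Vtn turned to -0.43. Among genes well above background on all 6 arrays 18 of 19 members and 103 of 147 further liver genes were above, with medians of 4.20 and 1.93; fewer genes were compared there. Leaving each other array out of the reference in turn gave 30 to 32 members with medians of 4.50 to 4.91 and 192 to 205 further liver genes with medians of 2.49 to 2.87. Of the 29 counted members in the authors' table, 26 were above. C8a was at 0.94 there and at 0.78 when probes were chosen before the floor, both from its other probe, the second an alternative chosen after seeing the data. Quantile normalization put the median of all genes at -0.10, and a percentile over detected probes at 0.21, against 0.06. The cosine passed 0 genes in every setting and with each array left out, though its unadjusted count ran from 347 to 4026. Genes not well above background on the other arrays have only a lower bound of their difference.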

Other observations

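Outside all lists, the 10 genes with a symbol furthest above on ZT20 were led by Reg2. Reg2, Reg3b and Reg3a, secreted proteins of the regenerating family that acinar and islet cells make, were 168-fold, 138-fold and 48.2-fold above the median of the other arrays. These folds turn on the reference. Without ZT4, ZT12 or ZT16 Reg2 was 41.2-fold, 41.2-fold and 60.6-fold above and Reg3b 41.1-fold, 41.1-fold and 56.7-fold, and without ZT0, ZT8 or ZT16 Reg3a was 126-fold, 131-fold and 131-fold above. Reg2 had levels of 3.82, -1.34, 3.85, -2.94 and -0.23 from ZT0 to ZT16 and 7.16 on ZT20, so that, unlike Alb, it was also high on ZT0 and ZT8. Bhmt2, a relative of Bhmt, was at least 70.6-fold above, Rgn, regucalcin, 53.4-fold, Serpina3m 52.5-fold and Car3, a carbonic anhydrase, at least 87.2-fold. Wfdc21 was at least 127-fold and Gpc2 at least 86.9-fold above. Hsd3b3, a steroid dehydrogenase, was at least 48.6-fold above the median but higher on ZT4, at 2.29, than on ZT20, at 0.43.

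Among transcription factors that drive hepatocyte genes, Hnf4a had levels of 1.32, 3.82, 1.07, -1.71 and 2.22 from ZT0 to ZT16 and 2.74 on ZT20, with ZT4 the highest array. Nr1h4, the bile acid receptor, had a difference of 1.27 and Cebpa one of -0.19. Of 5 clock genes 3 were above on ZT20, with Nfil3 4.31-fold, Arntl 3.88-fold and Per2 at a difference of 1.47. Dbp and Nr1d1 were below, Nr1d1 not well above background on ZT20.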
